A study of Danio rerio with 228 samples.

Results

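PFBA (perfluorobutanoic acid) is a short-chain perfluorinated carboxylic acid, and the pools described here are those of zebrafish embryos exposed to it at any concentration. All 20 pools labelled PFBA were taken, 4 at each of 8, 25, 80, 250 and 600 µM, out of 228 libraries of a series on 9 per- and polyfluoroalkyl substances. They were set as 1 group against the 6 DMSO pools labelled control_ottawa. Embryos of both groups were kept in 0.1% DMSO from 4 to 120 h post fertilisation, 10 whole embryos were pooled per library, and all of these fish came from the Ottawa facility. The labels give no strain or genetic change for either group, and they do not say which pools shared a spawning, so p-values measure the spread between pools. PFBS (perfluorobutanesulfonic acid), a short-chain sulfonic acid given to 20 pools at the same 5 concentrations in the same facility, served for a direct comparison.

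Perfluorinated acids resemble fatty acids with fluorine in place of hydrogen, and many longer ones are known from rodents to act on the nuclear receptor PPARα, which switches on genes of fatty acid oxidation in liver. Short-chain members such as PFBA are known to be cleared from the body faster than long-chain ones. RNA was measured by TempO-Seq, an assay in which a pair of detector oligonucleotides is ligated on each target RNA, with a panel of 3183 probes. Levels are given as CPM, counts relative to library size with TMM scaling between libraries, and they compare pools for 1 probe, not probes with each other.

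Depth was 2593457 to 4307222 counts in the PFBA pools (median 3326690) and 2981853 to 3679118 in the DMSO pools. DMSO pools 1, 2 and 5 stood apart from DMSO pools 3, 4 and 6. On the second principal component of the 26 pools, which held 11.7% of the variance, they lay at 20.4, 18.8 and 17.4 and the other 3 at -8.38, -2.60 and -3.63. Pools 1 and 2 came from RNA extraction batch 1 and pool 5 from batch 6, and pools 2 and 5 are the only DMSO pools on plate 2. The PFBA pools at 8 to 250 µM lay between -9.33 and 5.11 on this component and those at 600 µM between 2.08 and 6.21. On the first component, with 16.2% of the variance, pool 1 at 250 µM lay at 29.4 and pool 1 at 25 µM at 19.3. The main results are also given without DMSO pools 1, 2 and 5. Markers of the tissues of a whole larva were measured in every pool of both groups: the muscle gene tnnt3b was at 18090 CPM or more, the liver gene vtnb at 444 or more and the cone opsin opn1mw2 at 42.3 or more.

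With all concentrations pooled, 4 genes were lower in PFBA than in DMSO pools and 0 were higher. The lower ones were cyp24a1, the enzyme that breaks down active vitamin D, nr3c1, the glucocorticoid receptor, prelid3b, which encodes a protein of the PRELI family of lipid carriers of mitochondria, and blvra, biliverdin reductase, which makes bilirubin from a product of haem. They are 0.148% of 2698 probes tested by edgeR's quasi-likelihood test at an adjusted p under 0.05. At an unadjusted p under 0.05 the test counted 270 probes (10%), and DESeq2's test called 16, among them all 4. The median log2 change of all 2698 probes was 0.011. Which genes passed depended on the batch terms. With the RNA extraction batch as a term 7 probes were called, 4 higher and 3 lower, of which 1, prelid3b, was among these 4, and within the extraction batches that both groups share 3 were called and none of the 4. With the plate as a term all 4 were kept among 6 calls. On plate 1 alone 0 probes were called. On plate 2 alone, where pools 2 and 5 are the only DMSO pools, 80 were called, with 3 of the 4.

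cyp24a1 stood at 385, 319, 184.2, 146.7, 368 and 225 CPM in DMSO pools 1 to 6. In the 20 PFBA pools it ranged from 75.02 to 219 CPM with a median of 140. All 20 were below the DMSO mean of 271 CPM and 13 were below the lowest DMSO pool, so the groups overlapped. The log2 change was -0.95 ± 0.18 (SE, n = 20 and 6), 1.93-fold lower, with an adjusted p of 0.0221. Fitting the extraction batch gave -0.94 (adjusted p = 0.126) and shared batches alone -0.95 (0.0908), so the size held and the call was lost. It was -0.90 on plate 1 (0.999) and -1.16 on plate 2 (0.0065). With the 2 DMSO pools that the labels exclude, it was -0.65 (0.208). By concentration, the levels were 128.1 to 186 CPM at 8 µM, 140 to 219 at 25 µM, 119 to 163 at 80 µM, 127.2 to 205 at 250 µM and 75.02 to 108.4 at 600 µM. At 600 µM no pool reached the lowest DMSO pool, and the change there was -1.63 ± 0.23 (adjusted p = 0.000258). This call was lost within shared batches (-1.43, adjusted p = 0.203), on plate 1 (-1.65, 0.294) and with the excluded DMSO pools (-1.33, 0.370), which held 16.9 and 113.6 CPM of cyp24a1, 1 of them below all PFBA pools and 1 within their range. The levels of the excluded pools were scaled with those pools included.

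nr3c1 was at 84.6, 79.6, 63.8, 84.5 and 72.03 CPM in DMSO pools 1, 3, 4, 5 and 6 and above 100 CPM in pool 2, and it ranged from 30.5 to 77.9 (median 46.8) in the PFBA pools, of which 17 were below all DMSO pools. Its log2 change was -0.74 ± 0.15 (adjusted p = 0.0255). The changes at single concentrations lay between -0.91 ± 0.23 at 8 µM and -0.62 ± 0.22 at 250 µM, and none passed alone. Of 13 listed genes of the glucocorticoid response, nr3c1 was the 1 called, and the median change of the list was -0.10. fkbp5, a chaperone induced by glucocorticoids, had -0.39 ± 0.23 (adjusted p = 0.597).

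prelid3b stood at 66.9, 48.9, 59.6, 44.6, 44.9 and 46.6 CPM in the DMSO pools and at 26.2 to 47.2 (median 32.2) in the PFBA pools. Here too 17 of 20 PFBA pools were below every DMSO pool, and the log2 change was -0.61 ± 0.12 (adjusted p = 0.0255). At the 5 concentrations its changes ranged from -0.68 ± 0.19 at 600 µM to -0.51 ± 0.19 at 250 µM.

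The DMSO pools of blvra fell into 2 sets. They held 62.2, 68.9 and 71.4 CPM in pools 1, 2 and 5 and 23.9, 38.1 and 32.8 in pools 3, 4 and 6. The PFBA pools lay at 19.1 to 39.7 (median 29.6), and 3 were below all DMSO pools. The log2 change of -0.76 ± 0.16 (adjusted p = 0.0391) became -0.12 when DMSO pools 1, 2 and 5 were omitted, a choice made after seeing the data. The same omission gave -0.41 for cyp24a1, -0.55 for nr3c1 and -0.57 for prelid3b, and 0 of the 4 were called (adjusted p from 0.675 to 1). Leaving out DMSO pool 1, 2 or 5 alone was enough to bring the count of called genes to 0, and leaving out DMSO pool 6 brought it to 25.

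**Figure D1:**
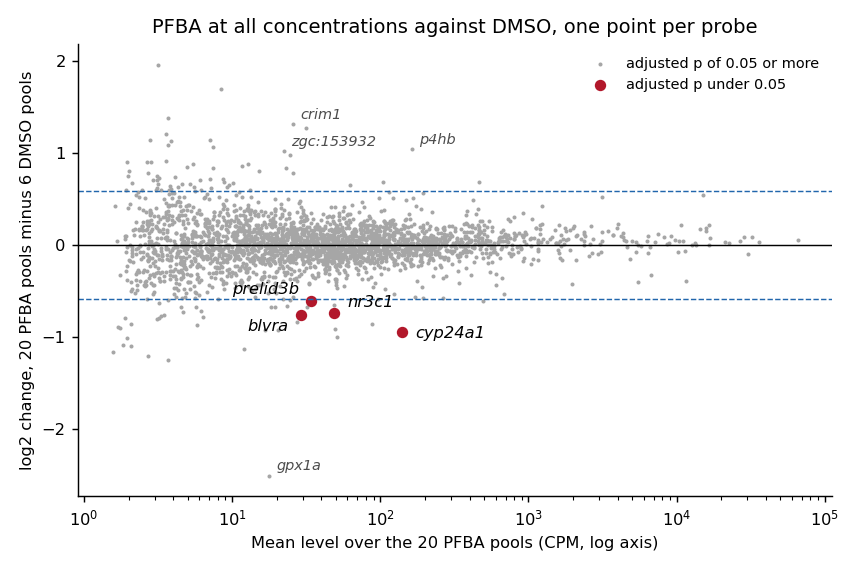
Each point is 1 of 2698 probes, with its mean CPM over the 20 PFBA pools on a log axis and its log2 change from the 6 DMSO pools. Dashed lines mark a 1.5-fold change, and the 4 called genes (red) all lie below 0.

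**Figure D2:**
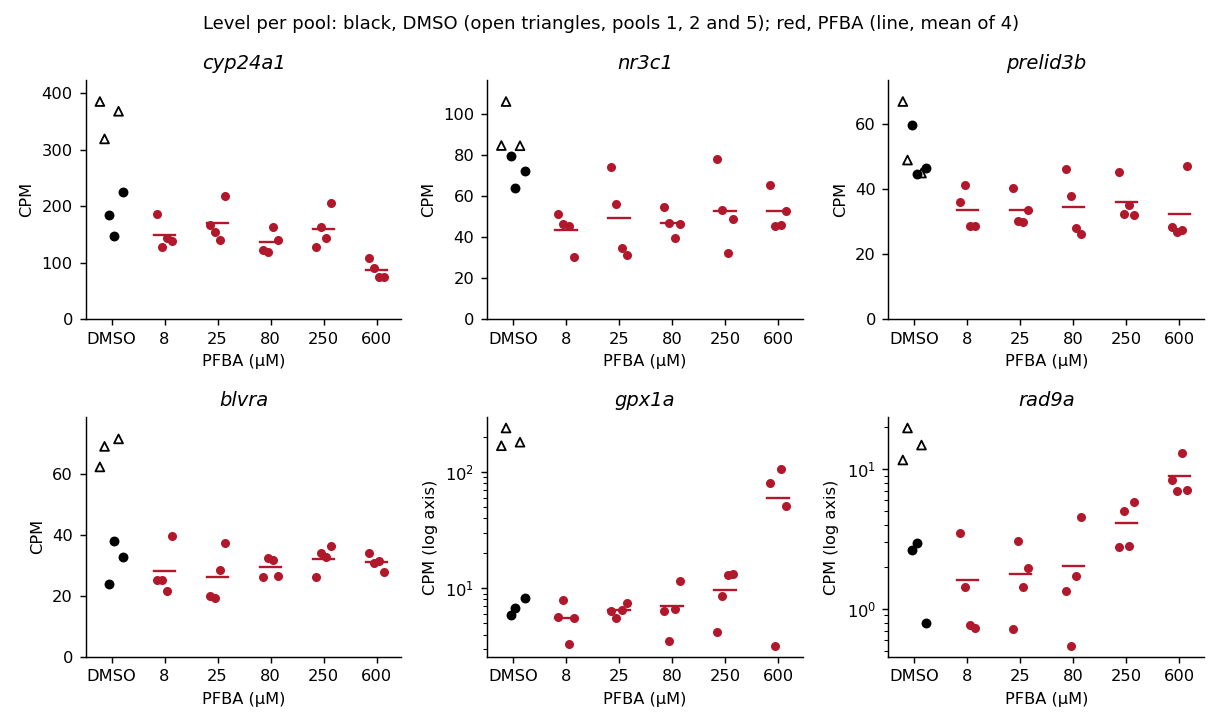
CPM per pool of 6 called genes by PFBA concentration in µM, with gpx1a and rad9a on a log axis; horizontal bars are means of 4 pools. The open triangles are DMSO pools 1, 2 and 5, which hold 168 to 238 CPM of gpx1a against 5.90 to 8.21 in the other 3 DMSO pools.

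No gene passed the threshold as higher in the PFBA pools, though some did under other fits. The smallest p in this direction, among probes at 5 CPM or more, belonged to p4hb, zgc:153932, crim1, hsp90b1, nprl2 and aldh1a2. p4hb, a protein disulfide isomerase of the endoplasmic reticulum, was at 46.2, 35.1, 77.7, 102.4, 43.7 and 168 CPM in DMSO pools 1 to 6 and at 83.8 to 256 (mean 163.1) in PFBA pools. All 20 PFBA pools exceeded the DMSO mean of 78.8 CPM and 8 exceeded every DMSO pool, with a log2 change of 1.04 ± 0.24 (adjusted p = 0.0593). hsp90b1, the HSP90 chaperone of the same compartment, had a smaller change of 0.33 ± 0.08 (adjusted p = 0.0948). The list for unfolded-protein stress, which holds hsp90b1, did not rise as a set. Of its 26 tested members 0 were called, and the median change was -0.026. At an unadjusted p under 0.05, 1 member was higher and 3 were lower. crim1, a transmembrane regulator of BMP signalling, was at 4.92 to 23.6 CPM (median 8.30) in DMSO pools and at 10.9 to 48.8 (median 26.6) in PFBA pools. Its change was 1.31 ± 0.31 (adjusted p = 0.0674). For zgc:153932 all 20 PFBA pools were above the DMSO mean and 11 above every DMSO pool, with a change of 1.02 ± 0.23 (adjusted p = 0.0593). aldh1a2, the enzyme that makes retinoic acid in the embryo, had a change of 0.22 ± 0.06 (adjusted p = 0.136). With the extraction batch as a term p4hb (1.43, adjusted p = 0.00408), crim1 (1.83, 0.0119) and hsp90b1 (0.35, 0.0117) were called, and DESeq2's test called p4hb, crim1, hsp90b1 and zgc:153932. With DMSO pools 1, 2 and 5 omitted, the changes were 0.48 for p4hb, 0.93 for crim1, 0.60 for zgc:153932 and 0.17 for hsp90b1, with an adjusted p of 1 for each.

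Among genes that were lower without passing, atp5f1b, the catalytic beta subunit of ATP synthase, stood at 2311 to 2955 CPM (median 2628) in DMSO pools and at 1439 to 2720 (median 1921) in PFBA pools. Of the 20 PFBA pools, 17 were below all DMSO pools, and the change was -0.43 ± 0.10 (adjusted p = 0.0593). dynll1, a light chain of the dynein motor, was at 241, 194 and 192.2 CPM in DMSO pools 1, 2 and 5 and at 110, 110 and 111.2 in pools 3, 4 and 6, against 44.9 to 172.8 (median 82.1) in PFBA pools. Its change was -0.86 ± 0.19 (adjusted p = 0.0593), and -0.33 with DMSO pools 1, 2 and 5 omitted (adjusted p = 1).

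The pooled data also set how large a change, averaged over the 5 concentrations, remained possible for each probe. A 95% confidence interval of the log2 change was taken from the same fit, and a change was counted as excluded where the whole interval lay inside a given fold in both directions. For 1760 of 2698 probes (65.2%) a change of 1.5-fold or more lay outside the interval. The share was 89.3% for a 2-fold change. These intervals do not bound the change at a single concentration. For per2 the pooled interval ran from -0.93 to -0.19, inside 2-fold, and the change at 600 µM was -1.165. The median probe had its interval inside 1.37-fold, and 90% of probes had theirs inside 2.03-fold. These are intervals of single probes: with Bonferroni's widening over all probes, which covers all of them jointly, the shares were 17.2% for 1.5-fold and 55.2% for 2-fold. With DMSO pools 1, 2 and 5 omitted, 1420 of 2766 single-probe intervals lay within 1.5-fold. The count was 1558 of 2698 with the extraction batch as a term and 1532 of 2670 within shared batches.

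How small a change could be excluded followed the level of the probe. Of 644 probes with a mean under 10 CPM in PFBA pools, 13.0% excluded a 1.5-fold change. The share was 76.1% of 1329 probes at 10 to 100 CPM, 91.5% of 603 from 100 CPM up to 10 times that level and 92.6% of those above that level. Below 10 CPM the median probe excluded a change of 1.86-fold, and in the highest class of 1.21-fold. An equivalence test by 2 one-sided tests gave 68.5% at 1.5-fold over all probes.

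**Figure D3:**
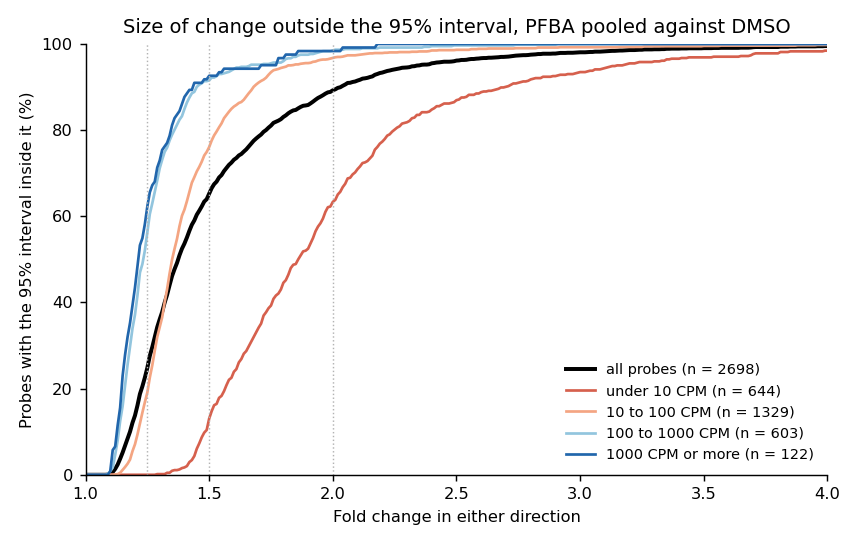
The x axis is a fold change in either direction and the y axis the share of probes, in percent, whose 95% interval for PFBA pooled against DMSO lies inside it, for all probes and by mean level in PFBA pools. At 1.5-fold the curve for all 2698 probes is at 65.2% and that for probes under 10 CPM at 13.0%.

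Read by function, the gene lists held few called members. Of the 26 lists, those of vitamin D handling and of the glucocorticoid response had a called member each, cyp24a1 and nr3c1, and the other 24 had none. All lists are read against the 0.148% of probes called and the 10% with an unadjusted p under 0.05. Counts of intervals within 1.5-fold concern the pooled change, not single concentrations. They are read against the 65.2% of all probes, a share that depended on the level of the probe.

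Longer perfluorinated acids are known to raise genes of fatty acid oxidation and PPAR targets in rodent liver. Of 48 such genes listed, 23 were tested here, in whole embryos and not in liver alone. Their median change was 0.00. For 19 of the 23 the interval lay within 1.5-fold and for 22 within 2-fold. cpt2, which hands fatty acids to oxidation inside the mitochondrion, was at 62.5 to 153.4 CPM (median 124.5) in DMSO pools and 113.6 to 252 (median 160.9) in PFBA pools, a change of 0.52 ± 0.16 (adjusted p = 0.201). fabp1a, a fatty acid carrier of liver, had -1.10 ± 0.41 (adjusted p = 0.345), at about 8 CPM at most in PFBA and in DMSO pools. The 5 genes of fatty acid synthesis had a median of -0.04, and fasn, fatty acid synthase, a change of -0.16 ± 0.15.

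For mitochondrial respiration and the citrate cycle, 19 of 22 genes had their interval within 1.5-fold and 22 within 2-fold, and the median change was 0.03. The counts within 1.5-fold were 9 of 11 for heat shock chaperones (median 0.00), 11 of 13 for apolipoproteins and plasma proteins (median 0.09) and 19 of 25 for glycolysis and hypoxia. For the list of oxidation and conjugation of foreign compounds, 18 of 26 (69.2%) were within 1.5-fold, near the 65.2% of all probes. There nr1i2, the pregnane X receptor, had -0.25 ± 0.07 (adjusted p = 0.158) and abcc4, an exporter of organic anions, -0.52 ± 0.15 (adjusted p = 0.137).

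Fewer intervals lay within 1.5-fold for immediate-early genes, with 5 of 21, and for the thyroid axis, with 6 of 14. In the thyroid axis dio1, which turns thyroxine into its active form, was at 370 to 606 CPM (median 426) in DMSO pools and 219 to 423 (median 354) in PFBA pools, with a change of -0.42 ± 0.12 (adjusted p = 0.137). Of 14 tested genes of the circadian clock, 0 were called, and the median change was -0.103. At an unadjusted p under 0.05, 0 were higher and 2 lower. These were per3, with -0.53 ± 0.16 (adjusted p = 0.158), and per2, with -0.56 ± 0.18 (adjusted p = 0.214). In the list of DNA replication and cell cycle, 12 of 66 members were higher and 1 lower at an unadjusted p under 0.05, with 0 called and a median of 0.17. plk1, a kinase of mitosis, stood at 107.2 to 143.7 CPM (median 123.1) in DMSO pools and 112.6 to 191.9 (mean 156.6) in PFBA pools, a change of 0.33 ± 0.09 (adjusted p = 0.137). In whole embryos, fewer cells of a type and less RNA per cell cannot be told apart.

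**Figure D4:**
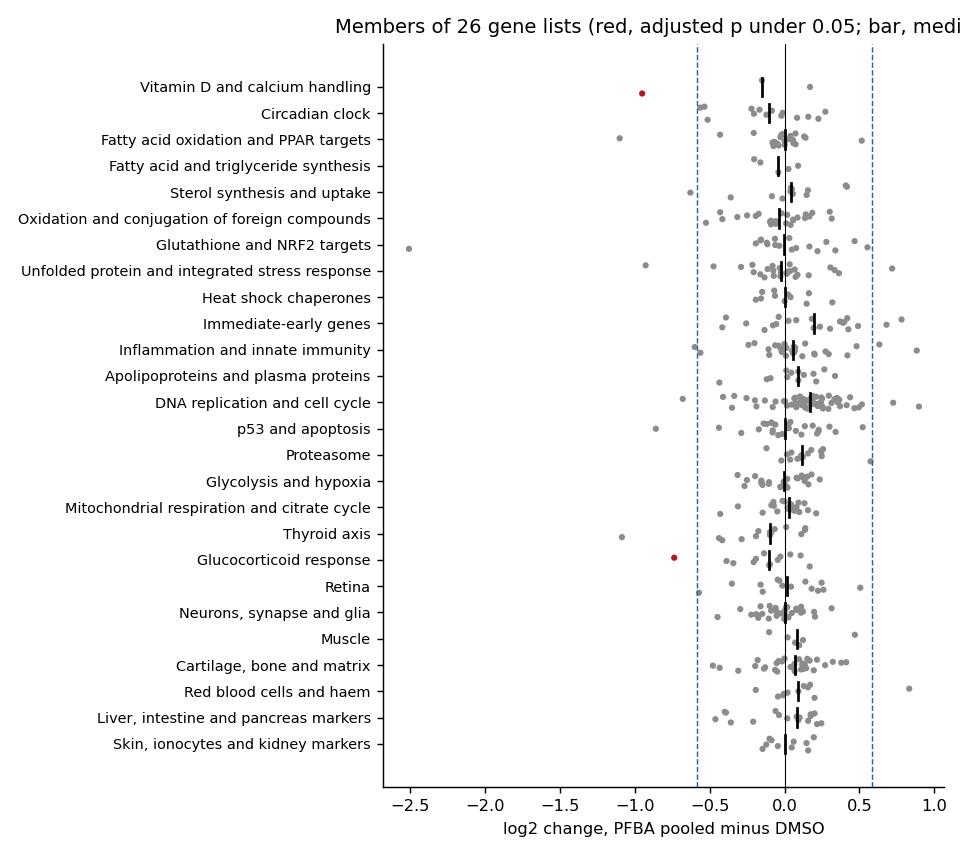
Log2 change of PFBA pooled against DMSO for each tested member of the 26 gene lists, with the list median as a bar and dashed lines at 1.5-fold. cyp24a1 and nr3c1 (red) are the called members, and list medians lie between -0.15 and 0.19.

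Within PFBA, the slope of log2 level on log10 concentration asks what rose or fell with dose, without the DMSO pools. Levels of 2 genes rose along concentration and 0 fell: gpx1a, a glutathione peroxidase that removes peroxides, and rad9a, part of the clamp that signals DNA damage. They are 0.076% of 2632 probes. An unadjusted p under 0.05 was reached by 6.53% of probes, and DESeq2's test called 3, of which 0 were these. gpx1a stood at 3.31 to 7.84 CPM at 8 µM, 5.54 to 7.53 at 25 µM, 3.54 to 11.57 at 80 µM and 4.19 to 13.2 at 250 µM. At 600 µM its pools held 80.8, 3.19, 104.9 and 50.7 CPM, so that 3 of 4 were above every other PFBA pool and 1 was the lowest of all 20. The slope was 1.79 ± 0.32 per 10-fold concentration (adjusted p = 0.0239). DMSO pools 1, 2 and 5 held 168, 238 and 180 CPM and pools 3, 4 and 6 held 5.90, 6.75 and 8.21, so 3 of the 4 pools at 600 µM lay between those 2 sets.

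rad9a was at 0.74 to 3.48 CPM at 8 µM, 2.79 to 5.84 at 250 µM and 8.39, 7.03, 13.1 and 7.15 at 600 µM, with a slope of 1.38 ± 0.26 (adjusted p = 0.0239). All 4 pools at 600 µM were above the other 16 PFBA pools. In the DMSO pools it stood at 11.63, 19.7, 2.62, 2.97, 14.9 and 0.79 CPM. Without the 600 µM pools the slopes were 0.50 for gpx1a and 0.90 for rad9a and neither was called (adjusted p = 0.991 for both). Without pool 1, 3 or 4 at 600 µM, or pool 3 at 8 µM, 0 genes were called.

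Of the probes with a negative slope, apoea, which encodes apolipoprotein E, had the smallest p. It was at 879 to 974.7 CPM at 8 µM and at 610 to 701 at 600 µM. Its slope of -0.28 ± 0.06 did not pass (adjusted p = 0.0682). Along the whole range from 8 to 600 µM, the 95% interval of the slope excluded a change of 1.5-fold for 49.3% of probes. The share was 80.6% for 2-fold, and the median probe excluded 1.51-fold. With Bonferroni's widening over all probes the shares were 3.88% and 33.4%. These intervals bound a straight trend on log10 concentration and not a step at a single concentration.

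Fitted as 5 separate groups against DMSO, PFBA called 0 probes at 8, 80 and 250 µM, 5 at 25 µM (0.182% of 2747) and 4 at 600 µM (0.146%). At an unadjusted p under 0.05 the shares were 6.48%, 8.19%, 6.84%, 7.17% and 7.43% from the lowest to the highest concentration, and DESeq2's test called 6, 10, 8, 0 and 18. At 25 µM fosab, a FOS subunit of the AP-1 transcription factor, and crim1 were higher (0.0728%), and dynll1, pak1 and atp5f1b were lower (0.109%). pak1, a kinase that acts on the actin skeleton, held 170, 201, 196 and 139.4 CPM at 25 µM against 265 to 408 in the DMSO pools, without overlap, with a log2 change of -0.98 ± 0.20 (adjusted p = 0.0459). At 8, 80, 250 and 600 µM it reached 351, 420, 411 and 299 CPM, so the groups overlapped there. With DMSO pools 1, 2 and 5 omitted, none of the 5 was called at 25 µM.

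At 600 µM the 4 called genes were lower: cyp24a1, per2, dlg3 and atp5f1b. per2, a repressor of the circadian clock, held 92.98, 113.1, 105.1 and 141.8 CPM at 600 µM against 200 to 332 in the DMSO pools, a change of -1.17 ± 0.23 (adjusted p = 0.0191). dlg3, a scaffold of synapses, held 48.2, 38.3, 43.01 and 52.9 CPM against 57.02 to 93.9, a change of -0.76 ± 0.14 (adjusted p = 0.0118). atp5f1b held 1557, 1647, 2030 and 1439 CPM against 2311 to 2955, a change of -0.65 ± 0.13 (adjusted p = 0.0191). None of these groups overlapped. With DMSO pools 1, 2 and 5 omitted, cyp24a1 kept its call at 600 µM (-1.09, adjusted p = 0.020), the other 3 did not (adjusted p from 0.0904 to 0.189), and 8 probes were called in all.

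The joint test over the 5 concentrations called 5 probes (0.182% of 2747, with 7.24% at an unadjusted p under 0.05): cyp24a1, fosab, gpx1a, hist1h2ba and dynll1. DESeq2's test called 42. fosab was at 174 to 405 CPM (median 278) in the DMSO pools and at 353 to 916 CPM in the 16 PFBA pools at 8 to 250 µM, but at 148.9, 196, 163 and 245 at 600 µM. hist1h2ba, a histone H2B gene, was at 1256, 1954, 2869, 2764, 1575 and 2668 CPM in DMSO pools 1 to 6, at 3004 to 3721 in the PFBA pools at 8 to 250 µM and at 1681 (pool 4) to 2205 at 600 µM. All 16 pools at 8 to 250 µM exceeded every DMSO pool. The adjusted p of the joint test was 0.00735 for fosab and 0.0272 for hist1h2ba, and with DMSO pools 1, 2 and 5 omitted both were still called (adjusted p = 0.0136 and 0.000737), as was gpx1a. The calls of cyp24a1 (0.0652) and dynll1 (0.208) were lost.

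To describe the highest concentration, the 4 pools at 600 µM were set against the other 16 PFBA pools, a comparison chosen after seeing the data. It called 47 of 2720 probes (1.73%), 28 higher (1.03%) and 19 lower (0.699%), with 12.2% at an unadjusted p under 0.05. DESeq2's test called 89. Of 21 listed immediate-early genes, 7 were called lower at 600 µM than at 8 to 250 µM. The list median was -0.55, beside -0.03 for all probes. Those called were fosab (-1.50 ± 0.21), fosl1a (-1.41 ± 0.29), btg2 (-1.11 ± 0.18), dusp1 (-0.99 ± 0.23), ier2b (-0.99 ± 0.18), ccn1 (-0.89 ± 0.14) and junba (-0.77 ± 0.16). fosl1a and junba encode AP-1 subunits, dusp1 a phosphatase that switches off MAP kinases, and btg2 an inhibitor of proliferation. btg2 held 656, 607, 694 and 622 CPM at 600 µM against 967 to 2255 at 8 to 250 µM, without overlap. These 4 pools lay within the range of the DMSO pools. Against DMSO at 600 µM, 0 of the 21 genes were called. At an unadjusted p under 0.05, 6 were lower and 0 higher, beside 7.43% of all probes in either direction. The list median there was -0.295, beside -0.013 for all probes.

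Of 12 listed sterol genes, 2 were called higher at 600 µM and 0 lower: cyp51 and hmgcra, enzymes of cholesterol synthesis, which changed by 0.90 ± 0.18 and 1.54 ± 0.40. The list median was 0.205, beside -0.027 for all probes. hmgcra was at a low level, about 10 CPM at most in PFBA pools. cyp7a1, the rate-limiting enzyme of bile acid synthesis, held 126.1 to 199.9 CPM at 600 µM and 47.7 to 111.3 at 8 to 250 µM, a change of 1.01 ± 0.16 (adjusted p = 0.000788). The DMSO pools lay at 72.03 to 136.3 CPM, and against DMSO the change at 600 µM was 0.58 ± 0.20, which did not pass (adjusted p = 0.421). gpx1a was higher by 3.07 ± 0.37, apoa1a, the main protein of high-density lipoprotein, by 1.18 ± 0.27, alas1, the first enzyme of haem synthesis, by 0.56 ± 0.14, and fkbp5 by 0.89 ± 0.22. hist1h2ba was lower by 0.72 on the log2 scale, with no overlap, and cyp24a1 by 0.82. Of the genes named in this paragraph, only cyp24a1 was called against DMSO at 600 µM, and 0 of the 12 sterol genes were. Leaving out single PFBA pools gave 11 to 73 called probes, with 11 without pool 2, 19 without pool 4, 23 without pool 1 and 24 without pool 3 at 600 µM, and 73 without pool 1 at 250 µM.

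RNA yield at 600 µM was 202, 234, 282 and 202 ng/µl against 189 to 378 at 8 to 250 µM, with means of 230 ± 37.8 (SD, n = 4) and 309 ± 54.01 (n = 16). A two-sided exact permutation test gave p = 0.0173, and 0.0694 after adjustment over 4 tests. Over all 20 PFBA pools the mean yield of 293 ± 59.8 ng/µl stood beside 287 ± 13.4 in the DMSO pools (exact permutation p = 0.801, adjusted 0.801). The RNA integrity number was 9.80 ± 0.19 in PFBA and 9.58 ± 0.23 in DMSO pools (exact permutation p = 0.0454, adjusted 0.0909). Within the extraction batches that PFBA and DMSO pools share, yield at 600 µM differed by -92.1 ng/µl (2 and 10 pools, exact permutation p = 0.0909, adjusted 0.364). The part of RNA yield in the changes at 600 µM was not tested.

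PFBS differs from PFBA by a sulfonic in place of a carboxylic acid group and in the length of its fluorinated chain, and it was tested at the same 5 concentrations. This was the 1 pair of compounds compared. With 1 level per concentration removed, 468 of 2724 probes (17.2%) differed between PFBA and PFBS pools, 239 higher and 229 lower in PFBA, by edgeR's quasi-likelihood test, and 27.3% had an unadjusted p under 0.05. Pooled against the same 6 DMSO pools, PFBA called 4 and PFBS 8 (0.299% of 2676), with 10% and 5.98% at an unadjusted p under 0.05. The direct comparison set 20 against 20 pools and each of the latter pair 20 against 6. The spread between the DMSO pools enters the latter pair and not the direct one. The part of either in the counts was not tested. The median log2 difference of all probes was 0.00.

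Immediate-early genes were higher in PFBA than in PFBS pools. Of 21 listed, 15 were higher and 0 lower, beside 8.77% of all probes higher, and the list median was 0.76. fosab stood at 148.9 to 916 CPM (median 489) in the PFBA pools and at 57.7 to 254 (median 143.4) in the PFBS pools, and 16 of 20 PFBA pools exceeded every PFBS pool. The difference was 1.63 ± 0.12 (adjusted p = 6.39e-14). btg2 differed by 1.36 ± 0.10, ier2b by 1.22 ± 0.11, junba by 1.09 ± 0.09, ccn1, which codes for a secreted matrix protein, by 0.86 ± 0.08 and fosl1a by 1.35 ± 0.14. For fosab the difference was 1.58, 1.75, 1.67, 1.92 and 1.24 at 8, 25, 80, 250 and 600 µM, and it passed at each one (adjusted p from 2.02e-05 to 0.0167). The DMSO pools of fosab, at 174 to 405 CPM, overlapped the pools of both acids.

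Sterol genes were lower in PFBA than in PFBS pools, with 5 of 12 listed called lower and 0 higher, beside 8.41% of all probes lower, and a list median of -0.40. cyp51 was at 31.4 to 110 CPM (median 50.3) in PFBA and 59.4 to 277 (median 150.8) in PFBS pools, a difference of -1.32 ± 0.15 (adjusted p = 8.57e-09). In DMSO pools it was at 52.4 to 102.6 CPM. hmgcra, HMG-CoA reductase, was lower by 1.79 on the log2 scale at levels of 0.36 to 10.4 and 4.43 to 18.1 CPM. In the list of DNA replication and cell cycle, 13 of 68 members were higher and 2 lower, beside 8.77% and 8.41% of all probes. Among the higher ones was a probe of kif23, a kinesin of cell division, with a difference of 0.43 ± 0.07 (adjusted p = 2.52e-05). The panel holds another kif23 probe, whose difference is not given here. Of the 4 genes called in the pooled comparison with DMSO, cyp24a1 (-0.63 ± 0.11), nr3c1 (-0.55 ± 0.12) and blvra (-0.64 ± 0.12) were lower in PFBA than in PFBS pools. prelid3b had a difference of -0.08 with a 95% interval from -0.29 to 0.14 (adjusted p = 0.723).

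The differences of fosab and cyp51 were not the largest called. 2 probes of btr22 (3.17 and 2.12) and trap1 (3.05) were higher in PFBA pools. si:dkey-18p12.4 (-2.76), snx11 (-1.96) and polr1b were lower. Among the DMSO pools the log2 SD was 1.96 for 1 btr22 probe, 2.18 for trap1 and 2.24 for polr1b. The median of 2389 probes was 0.27. Differences also appeared in genes that split the DMSO pools. gpx1a was at 3.19 to 104.9 CPM (median 6.53) in PFBA pools and at 8.09 to 221 (median 110) in PFBS pools, a difference of -3.26 ± 0.45. hist1h2ba was at 1681 to 3721 (median 3343) in PFBA and 1496 to 2516 (median 1951) in PFBS pools. Its difference was 0.71, 0.81, 0.83 and 0.90 at 8 to 250 µM and -0.0045 at 600 µM, and it passed at 8, 25 and 250 µM (adjusted p from 0.00092 to 0.00276). The DNA repair gene mgmt and ech1, an auxiliary enzyme of fatty acid oxidation, were higher in PFBA pools by 2.78 ± 0.35 and 2.09 ± 0.28. The rise of ech1 was not shared by most genes listed for this pathway. Of 24 tested between the acids, 1 was called higher in PFBA and 4 lower, with a median of -0.089. At an unadjusted p under 0.05, 1 was higher and 8 were lower.

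Fewer probes differed between both acids at the highest concentration. Fitted at each concentration alone, which was chosen after seeing the data, the comparison called 6.94%, 4.41%, 1.05%, 2.76% and 0.318% of probes at 8, 25, 80, 250 and 600 µM. A test of the difference in slope between PFBA and PFBS called 12 probes (0.441% of 2724), 3 with a higher slope in PFBA (0.11%) and 9 with a lower one (0.33%), and 7.75% had an unadjusted p under 0.05. Within plate 1 alone 91 probes and within plate 2 alone 334 differed between the acids, and with the extraction batch as a term 545 did.

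**Figure D5:**
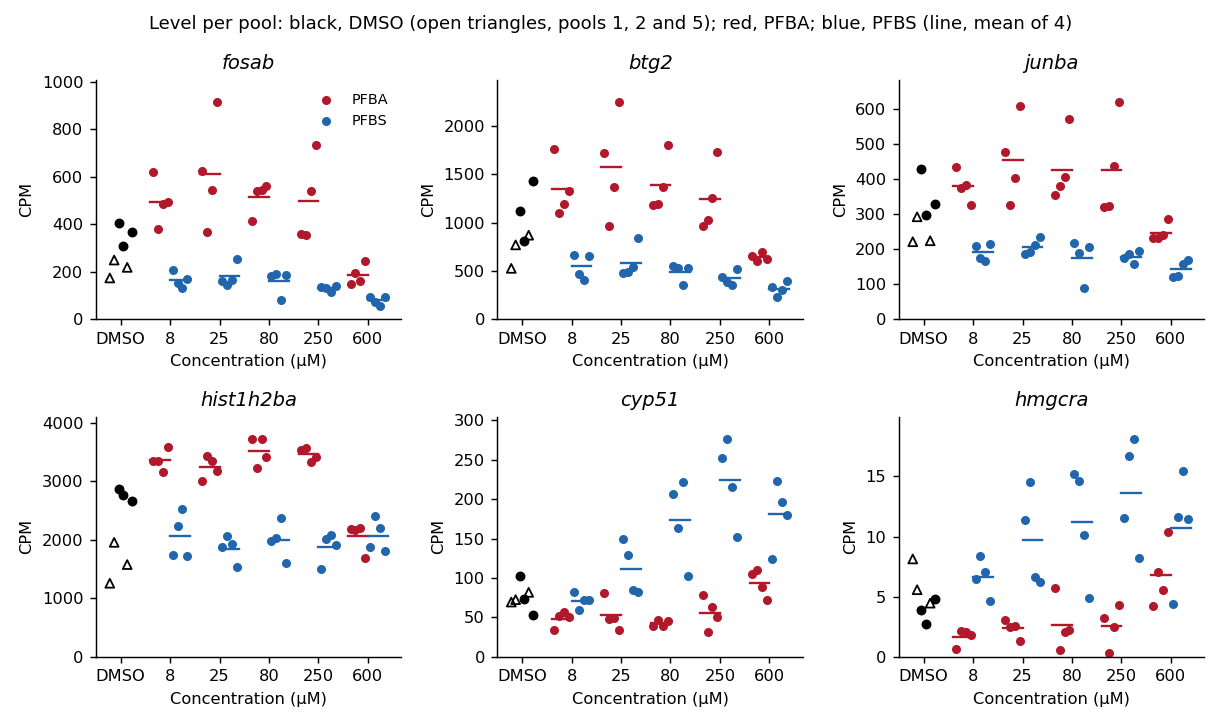
CPM per pool of 3 immediate-early genes, a histone gene and 2 sterol genes for PFBA (red) and PFBS (blue) by concentration in µM, with DMSO pools in black (open triangles, pools 1, 2 and 5) and bars at the mean of 4 pools. fosab in PFBA pools at 8 to 250 µM is at 353 to 916 CPM, above all PFBS pools, and is at 148.9 to 245 CPM at 600 µM.

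Other acids that share these 6 DMSO pools are given side by side, without a test between them. Pooled over their 5 concentrations, 3.79% of probes were called for PFHxA and 1.68% for PFHxS, beside 0.148% for PFBA. Most PFHxA and PFHxS pools came from extraction batches without a DMSO pool, whereas most PFBA pools shared a batch with one. The concentrations of PFHxA and PFHxS also differed from those of PFBA. The part of batch and concentration in the differences between these acids was not tested. Slopes within each acid, which use no DMSO pool, were called for 2 probes in PFBA, 16 in PFBS (0.613%, 0.459% higher, with 7.96% at an unadjusted p under 0.05), 26 in PFHxA (0.996%) and 491 in PFHxS (18.8%). cyp24a1 had a pooled change of -0.95 in PFBA, -0.19 in PFBS, -1.49 in PFHxA and -0.24 in PFHxS. prelid3b had -0.61, -0.53, -0.80 and 0.43 in the same order.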

How the data were processed

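Whole counts per probe and library were deposited by the authors in 1 table, and no normalization was found in them. The submitters' processing notes name fastp 0.23.2, STAR 2.7.10b and R 4.4.1 without roles. The genome build is not given in the sources used here. Of 3183 probe symbols, 3122 matched the gene tables used here. Chi-square over 45 pairs of pools, within each PFBA concentration and within DMSO, was 6.85 or more per degree of freedom. So no pool was a copy of another in its own group, and pairs across groups were not checked.

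Counts were tested in R 4.3.3 with edgeR 4.0.16 (filterByExpr, TMM, glmQLFit, glmQLFTest), two-sided, with Benjamini-Hochberg adjustment over all probes tested and a threshold of 0.05. Fits were PFBA pooled against DMSO, log10 concentration within PFBA, each concentration against DMSO, and PFBA against PFBS with concentration as a block. Standard errors and 95% intervals come from these fits. DESeq2 1.42.0, limma 3.58.1 (voom), other scalings, plate, batch and pool sets were alternatives. RNA yield and integrity were compared with scipy 1.17.1. Steps were checked on simulated counts.

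Members, the 26 gene lists and the rule for named genes were chosen with earlier results of these data known. For the pooled comparison and the slope, the rule took up to 12 rises and 12 falls among called probes at 5 CPM or more. To reach 6 in a direction, it took those of smallest p. For the joint test it took called probes of smallest p. For PFBS and the comparison at 600 µM it took the 5 largest called differences each way and also probes of smallest p. Probes called at single concentrations and 2 members per list were added, with cyp24a1, per2, dlg3, atp5f1b and gpx1a named too. Some list members were named after their values were seen.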

Additional observations from a re-analysis of the deposited data

Results flagged for a closer look

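Of the sets of 4 or 6 pools examined (genes that passed a test, in each PFBA concentration and in DMSO, depth and RNA measures), 11 (7.6%) held a pool far from the rest by Dixon's test, where chance gives about 1 in 20. At 600 µM pool 4 stood out 3 times. It held 36.4 CPM of cebpb against 22.4 to 22.7, 1681 of hist1h2ba with the others reaching 2205, and 47.2 of prelid3b against 26.8 to 28.3 in the other 3 pools. pak1 was at 270 CPM in pool 3 at 600 µM (others 297 to 299) and at 351 in pool 3 at 8 µM (others 225 to 243). Pool 1 held 537 CPM of apoa1a at 8 µM (others 282 to 310), and pool 1 at 80 µM held 413 of fosab (others 539 to 560). loc101882968 was at 10.0 CPM in pool 3 at 80 µM, against 3.03 to 3.39. In DMSO, pool 3 held 102.9 CPM of cebpb (others 26.8 to 55.1) and pool 6 held 23.6 of crim1 (others 4.92 to 11.63). RNA yield was 336 ng/µl in pool 3 at 25 µM, against 256 to 268.

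Slopes along log10 concentration differed between PFBA and PFBS, by the test of the difference itself, for 12 probes. The PFBA slope was the higher one for gpx1a (2.92 per 10-fold), ube2ka (0.94) and ide (0.61). For the rest the difference was negative: -3.94 for trap1, -2.27 for mgmt, -1.80 for ech1, -1.30 for prdx2, -1.21 for crim1, -0.60 for iqgap1, -0.50 for sparc, -0.46 for opn1lw2 and -0.33 for icmt. For gpx1a the slopes were 1.79 ± 0.32 in PFBA and -1.08 ± 0.26 in PFBS.

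A further 2 DMSO pools from Ottawa carry an exclusion label and entered no main comparison above. Levels in this paragraph were scaled with these 2 pools included, so they differ slightly from those above. Of 92 probes named by rule, 10 were higher in both of them than in all 6 DMSO pools and 10 were lower in both. Among the lower ones was cyp24a1, at 16.9 and 113.6 CPM in these pools without PFBA, against 147.9 CPM or more in the 6 DMSO pools. The others were alas1, apoea, birc2, hmgcra, hnf4a, nit1, nqo1, pmvk and tspan3a. The lower of the 2 pools held 898 CPM of pak1 (highest DMSO pool 408), 165 of psma1 (103.3), 74.7 of alpi.2 (62.6), 60.4 of crim1 (23.7) and 57.5 of zgc:153932 (20.7). It held 38.7 of snx11 (11.9), 34.2 of isg15 (30.9), 23.5 of rad9a (19.9), 17.9 of si:dkey-18p12.4 (9.63) and 14.5 of a btr22 probe (9.97). For another btr22 probe it held 11.9 CPM, below the highest DMSO pool at 13.9.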

How the results depend on the processing

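Counts below are of called probes, and the cause of each shift was not tested. The 4 probes of the pooled comparison became 8 with scaling by total counts, 16 with DESeq2's test, 0 on plate 1, 80 on plate 2, 7 with the extraction batch as a term, 10 fitted with all Ottawa pools, 16 as the mean of 5 coefficients, 13 without the 600 µM pools, 0 with the 8 and 25 µM pools alone and 62 with the 2 excluded DMSO pools. The 5 of the joint test became 10 with total counts, 42 with DESeq2, 0 on plate 1, 59 on plate 2, 10 with the batch term, 1 within the extraction batches that both groups share, 26 with all Ottawa pools and 11 with the excluded pools. The 2 of the slope became 0 on either plate, with the batch term, within shared batches, without the 600 µM or without the 8 µM pools, 20 on linear concentration and 1 with DMSO added. In that last fit the slopes changed sign, to -0.504 for gpx1a, -0.0188 for ide, -0.110 for rad9a and -0.159 for ube2ka. With the excluded pools the pooled changes of crim1 and zgc:153932 changed sign, to -0.267 and -0.501, and cyp24a1 lost its call pooled (adjusted p = 0.208), jointly (0.625) and at 600 µM (0.370).

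At 8, 25, 80 and 600 µM (0, 5, 0 and 4 probes) DESeq2 called 6, 10, 8 and 18, and plate 2 alone 84, 69, 69 and 15, with 58 at 250 µM (0 probes). Plate 1 alone gave 0 at 25 and 600 µM. With all Ottawa pools the counts were 4, 12, 9, 2 and 11 from 8 to 600 µM. The batch term gave 2, 1, 2 and 13 at 25, 80, 250 and 600 µM, and shared batches 1, 1, 1 and 0 at 8, 25, 80 and 600 µM. The plate term gave 4 at 80 µM and 8 at 600 µM. At 600 µM total counts gave 8 and the excluded pools 7. The 468 probes between PFBA and PFBS became 91 on plate 1. The 12 of the slope difference became 28 with DESeq2, 1 and 3 on plates 1 and 2, 0 within shared batches and 7 with all Ottawa pools. The 47 at 600 µM against 8 to 250 µM became 89, 6, 12, 82 and 31 with DESeq2, plate 1, plate 2, the batch term and shared batches. The 1760 probes within 1.5-fold became 933 on plate 2 and 465 with Bonferroni's intervals.

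Omitting DMSO pools 1, 2 and 5 gave 1 pooled, 0 at 25 µM and 8 at 600 µM. Omitting pool 1 at 25, 80 and 250 µM gave 12 pooled, 11 for the slope, 13 jointly, 1 at 25 µM, 22 at 600 µM and 80 for 600 µM against the rest. Both omissions were chosen after seeing the data. Leaving out 1 pool at a time gave 0 to 25 pooled calls, 1604 to 1778 within 1.5-fold, 0 to 4 for the slope, 2 to 17 jointly, and 0 to 3, 0 to 10, 0 to 8, 0 to 0 and 1 to 9 from 8 to 600 µM. It gave 440 to 557 for PFBS, 9 to 22 for the slope difference and 11 to 73 for 600 µM against the rest. Pooled calls numbered 0 without DMSO pool 1, 2 or 5, 12 without DMSO pool 3, 7 without DMSO pool 4 or pool 4 at 8 µM, 25 without DMSO pool 6 and 12 without pool 1 at 600 µM.

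Deviations of pools with the same replicate number correlated at -0.238 to 0.606 (median 0.0159, 13 of 60 pairs over 0.1), so the numbers were not taken to pair them. With the replicate block the counts were 6 pooled (4 higher and 2 lower, without cyp24a1, adjusted p = 0.116, and blvra, 0.141), 0 for the slope, 5 jointly, 1, 1, 1, 0 and 5 from 8 to 600 µM, 479 for PFBS, 11 for the slope difference, 57 for 600 µM against the rest and 1526 within 1.5-fold. RNA yield and integrity differences kept their direction within shared batches. Intervals were widest for probes under 10 CPM, and they hold the spread between pools as well as counting error.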
